A study of Saccharomyces cerevisiae with 50 samples.

Results

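RPS28A, RPS28B and EDC3 were followed through ribosome footprint and mRNA libraries of budding yeast strains lacking ribosomal protein genes. They were taken by name, as the rows of both tables that carry these symbols, and are 3 of the 6679 open reading frames listed. RPS28A and RPS28B are the paralogous genes for the small-subunit protein Rps28, and EDC3 encodes an enhancer of mRNA decapping. The question was what each gene, and the sum of both copies, did in the strain labelled rps28a (4472v) and in the strain labelled rps28b (4474), set against all other strains.

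Rps28 is a small protein of the 40S subunit, and its 2 gene copies encode nearly identical proteins. RPS28B mRNA is known for a feedback loop in which Rps28 protein binds an element in the 3′ untranslated region of that mRNA, and Edc3 joins it and promotes removal of the cap, so that the transcript is degraded. RPS28A mRNA is not known as a target of this loop, and the other transcript known to decay through Edc3 is the unspliced form of YRA1, which encodes an mRNA export factor.

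All 25 samples were of the SK1 background and came from cultures in rich YEPD medium with 2% glucose, shaken at 30 °C and collected in exponential growth at an OD600 of 0.6. Each gave 1 footprint and 1 mRNA library, and a genotype label occurs once, apart from the wild type (4484-1 and 4484-2, under 1 strain number) and rps22a (4662v and 4659), and 4662v goes against its label. The 23 samples that keep both RPS28 genes served as the comparison. These were the 2 wild-type samples, 14 strains with large-subunit deletions (RPL strains) and 7 strains with other small-subunit deletions. The RPL strains were rpl7a, rpl24a, rpl24b, rpl26a, rpl26b, rpl38, rpl40a, rpl40b, rpl41a, rpl41b, the double deletion rpl26a rpl26b, and the heterozygous rpl7a/+ rpl7b/+, rpl26a/+ rpl26b/+ and rpl40a/+ rpl40b/+. The other RPS strains were rps0b, the pair labelled rps22a, rps25b, rps29b, the double deletion rps25a rps25b and the heterozygous rps22a/+ rps22b/+. The labels do not give how the deletions were made, the ploidy of the strains that are not heterozygous, or whether a strain is 1 clone.

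Levels are given in RPKM (reads per kilobase of coding length, less 60 nt, per 1000000 assigned reads), computed from reads recovered from the deposited values. Libraries held 0.962M to 3.51M reads for mRNA and 4.10M to 8.57M for footprints (M, 1000000 reads). The other RPS strains had shallower mRNA libraries than the RPL strains (medians of 1.18M and 2.00M), and rps28a and rps28b had 1.31M and 1.24M. A pair of labels went against their own deleted genes. In the strain labelled rps22a (4662v), RPS22A stood at 94.7% of the median of all samples in mRNA and 112% in footprints, and RPS22B at 24.2% and 15.6%. For rpl26a/+ rpl26b/+ (4654v), RPL26A and RPL26B were at 53.6% and 51.2% in mRNA but both at 101% in footprints. RPS0A was at 94.5% in mRNA under that label and at 1.01% in footprints. For the main ranges that these libraries set and the main results that they move, values without them are also given.

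The deleted genes were nearly empty in their own strains. RPS28A had 4 mRNA reads and 29 footprint reads in rps28a, where the other copy had 630 and 6152. RPS28B had 3 mRNA reads and 58 footprint reads in rps28b, where RPS28A had 492 and 7421. Each deleted gene was the lowest of all genes in its strain relative to the 23 other samples, in both assays.

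In level, RPS28A mRNA in rps28a was 21.3 RPKM, or 0.831% of the median of the 23 samples (95% exact Poisson interval 0.227 to 2.13%), and its footprints were 42.8 RPKM, or 0.495% (0.331 to 0.711%). RPS28B in rps28b was at 16.8 RPKM in mRNA, or 0.910% (0.188 to 2.66%), and at 64.6 RPKM in footprints, or 1.03% (0.783 to 1.33%). The intervals cover counting error only. For scale, 4.45% of 5103 genes were at least 1.5-fold lower than the median in rps28a mRNA and 3.64% in rps28b mRNA, and in footprints 2.87% and 2.89% of 4222 genes.

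The coding sequences of the copies are alike and of equal length (204 nt each), and the sources used here do not say how reads matching both were counted. The share of the pair's reads that fell on the deleted copy was small. In rps28a these reads were 0.631% of the reads of the pair in mRNA (exact binomial interval 0.172 to 1.61%) and 0.469% in footprints (0.314 to 0.673%). In rps28b they made up 0.606% (0.125 to 1.76%) and 0.776% (0.589 to 1.00%).

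RPS28B mRNA was higher in rps28a than in any other sample. It stood at 3350 RPKM, against a lowest, median and highest value of 1673, 1843 and 2106 RPKM in the 23 other samples. That is 182% of the median (168 to 196%), 13.1 SD above the mean of the 23, and 171% of the mean of the wild-type samples, which were at 2043 and 1874 RPKM. The sample sits far outside a narrow band, and the highest of the 23, rpl26a/+ rpl26b/+ (4654v), was closer to the median than to rps28a. The range was 1703 to 2043 RPKM without 4662v and 4654v.

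Footprints on RPS28B also reached their highest value in rps28a, by a smaller margin. They were at 9084 RPKM, against 4509, 6265 and 7633 RPKM as the lowest, median and highest of the 23. This is 145% of the median (141 to 149%), 3.73 SD above the mean, and 126% of the mean of the wild-type samples, one of which (4484-1) held the highest of the 23 values. Footprints thus lay above the range but short of 1.5-fold, which they passed only with the scaling by the median of gene ratios, at 153%. Without 4662v and 4654v the lowest of the others was 5115 RPKM, and rps28a was at 144% of their median.

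Among all genes, few moved this way in rps28a. In mRNA, 1.31% of 5103 genes were at least 1.5-fold above the median of the 23 and 1.90% lay above their range, and RPS28B ranked 23rd by fold change. The genes that met both conditions numbered 22. In footprints, 0.876% of 4222 genes were at least 1.5-fold up and 1.14% lay above the range, and RPS28B ranked 50th. With 1 rps28a strain the difference has no replicate check and no p-value can be given for it.

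**Figure D1:**
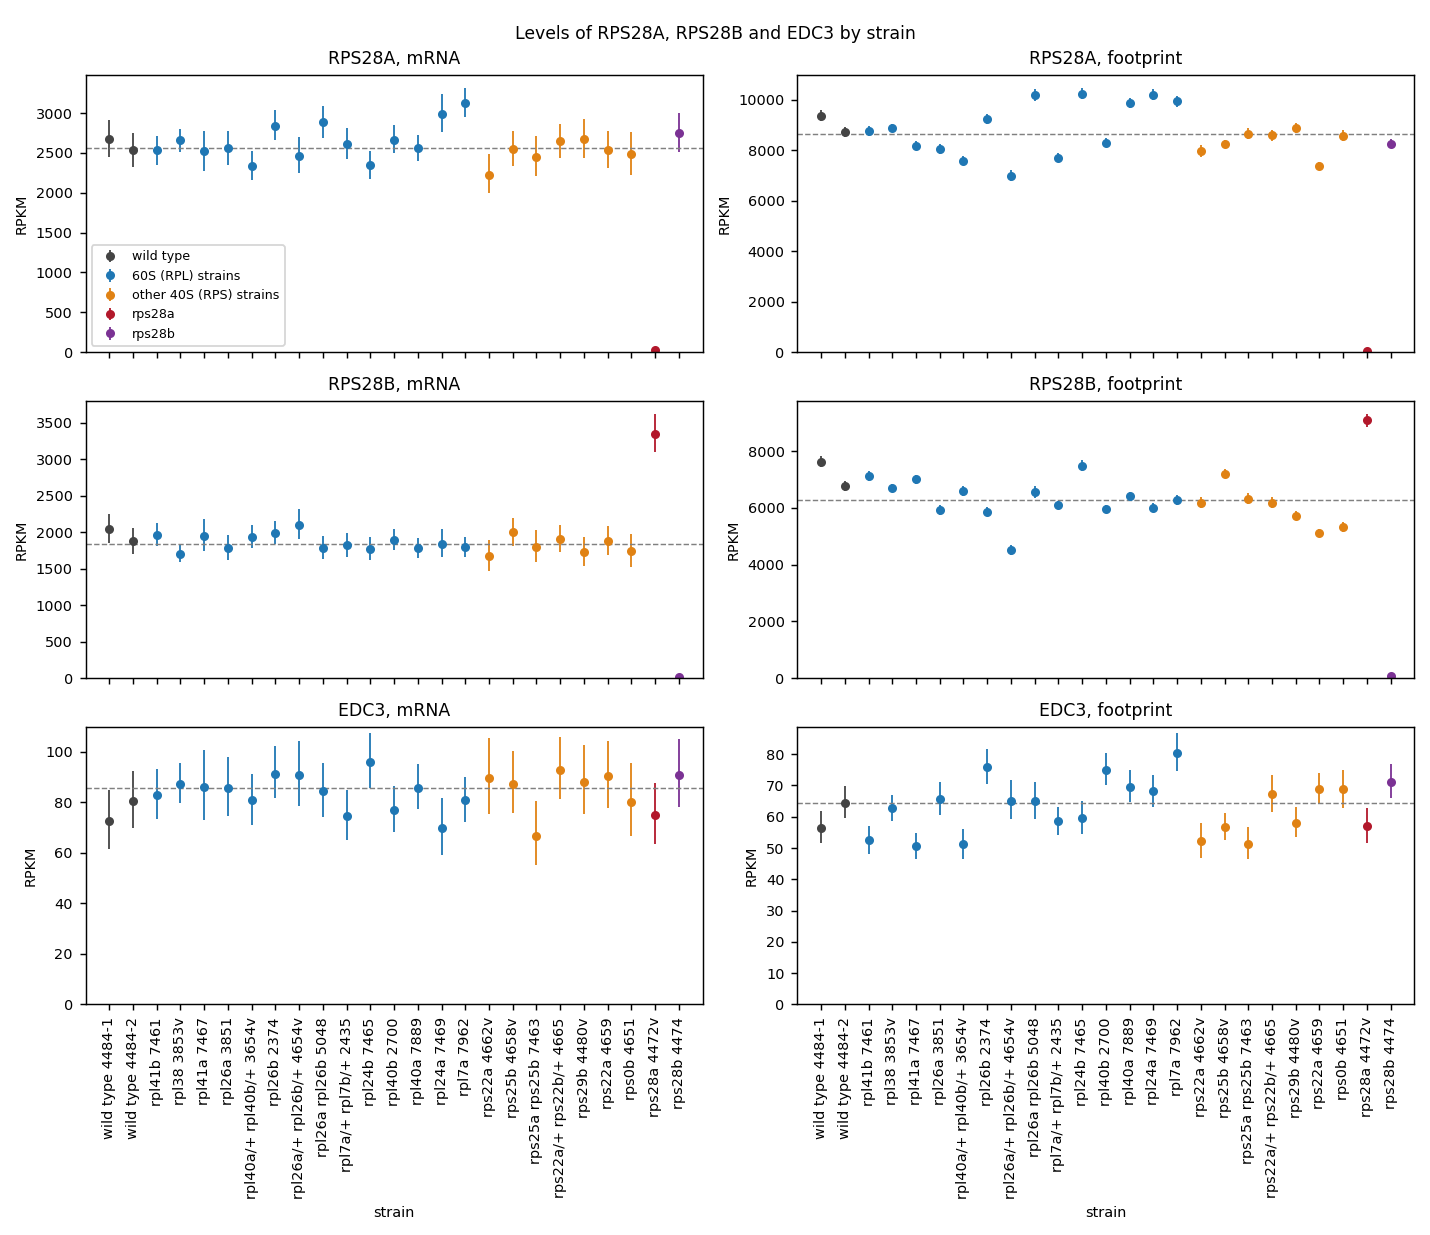
Levels of RPS28A, RPS28B and EDC3 (rows) in mRNA (left) and footprints (right) by strain, in RPKM on axes that start at 0. Points are single libraries coloured by group, bars are 95% exact Poisson intervals, and dashed lines are the median of the 23 samples with both RPS28 genes. RPS28B in rps28a lies at 3350 RPKM in mRNA and 9084 RPKM in footprints, above all others, while RPS28A in rps28b lies among them.

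RPS28A did not show the same rise when RPS28B was deleted. In rps28b, RPS28A mRNA was at 2752 RPKM, against 2228, 2558 and 3129 RPKM as the lowest, median and highest of the 23. This is 108% of the median (98.3 to 118%), and 99.0% with the scaling by the median of gene ratios. Footprints on RPS28A were at 8268 RPKM, within a range of 6996 to 10252 RPKM around a median of 8655, or 95.5% (93.4 to 97.7%). Without 4662v and 4654v the lowest values were 2340 RPKM in mRNA and 7386 RPKM in footprints, and both rps28b values were still within the range.

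Both values lay inside the range of the other samples, the mRNA ranking 5th and the footprints 16th of 25. Outside the range of the 23 lay 10.9% of genes in rps28b mRNA and 5.4% in rps28b footprints. The rise of RPS28B in rps28a and the value of RPS28A in rps28b come from 1 strain each, and the difference between them was not tested.

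The sum of both copies fell short of the other samples in both deletion strains. In mRNA the sum was 3371 RPKM in rps28a and 2769 RPKM in rps28b, against 3901, 4432 and 4925 RPKM as the lowest, median and highest of the 23. In footprints it was 9127 RPKM in rps28a and 8332 RPKM in rps28b, against 11505, 15104 and 17740 RPKM. Both strains were below all 23 in both assays, and the lowest of the others rose to 4119 and 12501 RPKM without 4662v and 4654v.

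In percent of the median sum, rps28a kept 76.1% in mRNA and 60.4% in footprints, and rps28b kept 62.5% and 55.2%. The median level of RPS28B in the 23 samples was 41.6% of the median sum in mRNA and 41.5% in footprints. That of RPS28A was 57.7% and 57.3%. Thus rps28a held more than RPS28B alone supplied in the other samples, and RPS28A in rps28b lay within 1 SD of its mean level in both assays. The mRNA gap between the strains (76.1% against 62.5%) was wider than the footprint gap (60.4% against 55.2%), without a replicate for either.

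**Figure D2:**
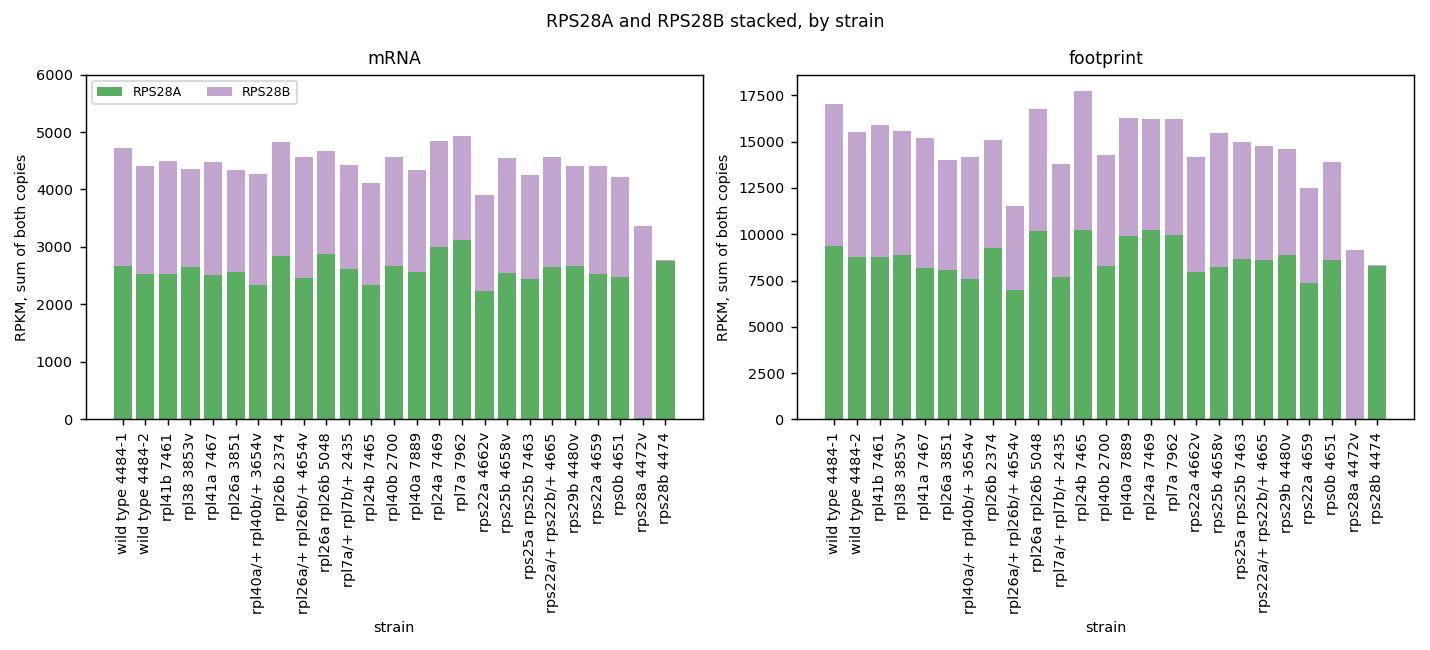
Stacked levels of RPS28A (green) and RPS28B (violet) in RPKM by strain, mRNA on the left and footprints on the right. Bars start at 0 and each is 1 library. The sums in rps28a and rps28b are the lowest of the 25 samples in both panels, and RPS28B alone makes up nearly the whole rps28a bar.

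The footprint-to-mRNA ratio of RPS28B was low in rps28a, where mRNA stood further above its median than footprints did. The ratio is the footprint RPKM over the mRNA RPKM under the same strain label. Each is scaled to its own total, so that a ratio of 1 has no absolute meaning. The RPS28B ratio was 2.71 in rps28a, against 2.14, 3.49 and 4.22 as the lowest, median and highest of the 23. This is 77.7% of the median (exact counting interval 71.6 to 84.5%) and rank 24 of 25.

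The lowest of the 25 was rpl26a/+ rpl26b/+ (4654v), the strain whose footprint library goes against its label. Without that strain and rps22a (4662v), rps28a lay below the range of the remaining 21, whose lowest value was 2.73 in rps22a (4659). The margin to that strain is far inside the counting interval. By size of the fall RPS28B ranked 346th of 4199 genes, and 7.41% of genes lay outside the range of the 23.

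RPS28A had a ratio of 3.004 in rps28b, or 90.4% of the median of 3.32 (82.5 to 99.2%), within a range of 2.84 to 4.37. In rps28b, 6.55% of genes had a ratio outside the range of the 23. The ratios of the deleted genes themselves rest on 3 and 4 mRNA reads and are not given.

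**Figure D3:**
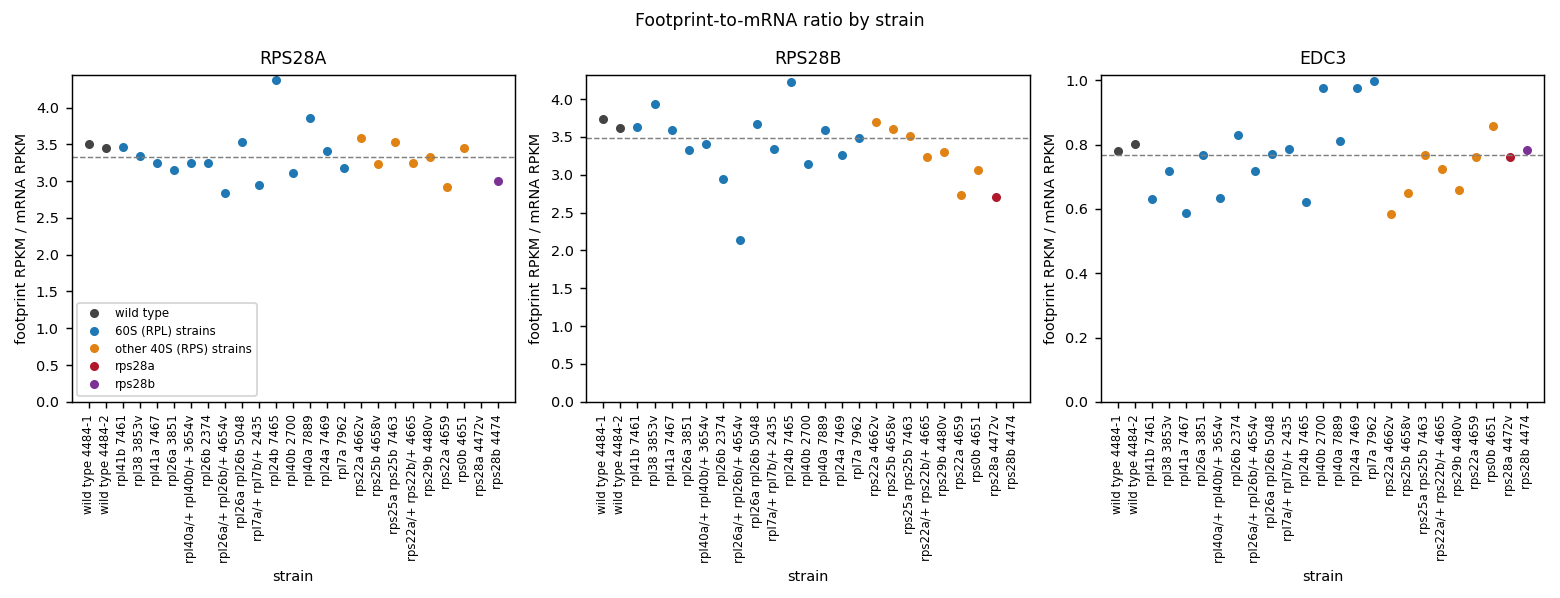
Footprint-to-mRNA ratio of RPS28A, RPS28B and EDC3 by strain, on axes that start at 0. Each point is 1 strain, dashed lines are the medians of the 23 samples with both RPS28 genes, and the ratios of each deleted gene in its own strain are left out. RPS28B in rps28a, at 2.71, is low but above rpl26a/+ rpl26b/+ (4654v), and EDC3 lies near its median in both RPS28 deletions.

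EDC3, the decapping enhancer of the loop, was near its usual level in both deletion strains. Its mRNA was at 74.8 RPKM in rps28a (156 reads) and 90.8 RPKM in rps28b (180 reads), against 66.9, 85.8 and 96.0 RPKM as the lowest, median and highest of the 23. Its footprints were at 57.0 and 71.3 RPKM, against 50.5, 64.4 and 80.5 RPKM. All 4 values were within the range of the 23.

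In percent of the median, EDC3 mRNA was 87.2% in rps28a (74.1 to 102%) and 106% in rps28b (91.0 to 123%), and 99.0% in rps28b with the scaling by the median of gene ratios. EDC3 footprints were 88.5% (80.3 to 97.3%) and 111% (103 to 119%). The ratio was 0.762 in rps28a and 0.784 in rps28b, against a median of 0.766 (99.4% and 102%, and 105% in rps28a with that scaling). Outside the range of the 23 lay 7.05% of genes in rps28a mRNA and 5.68% in rps28a footprints. The intervals cover counting error only. The SD over the 23 samples was 8.83% of the median in EDC3 mRNA and 13.2% in EDC3 footprints. With 1 strain of each genotype at this depth, a change within that spread cannot be told from differences between strains.

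**Figure D4:**
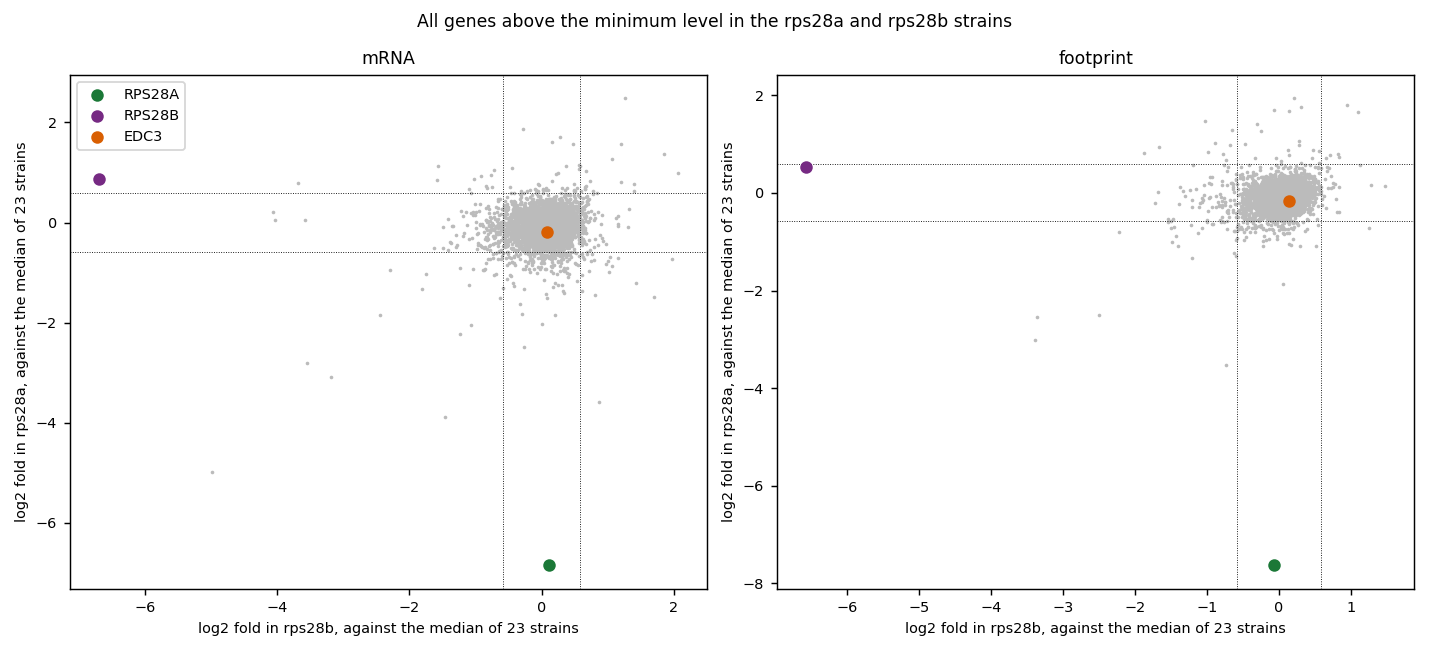
Log2 fold change against the median of the 23 samples in rps28b (horizontal) and in rps28a (vertical) for all genes whose mean level was 10 RPKM or more, mRNA on the left and footprints on the right, on log2(RPKM + 1). Grey points are genes and dotted lines mark 1.5-fold. RPS28A and RPS28B lie far out along 1 axis each, at -6.84 and -6.70 in mRNA, RPS28B is displaced upwards in rps28a, and EDC3 lies in the central cloud.

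Among the 23 samples with both RPS28 genes, RPS28B mRNA varied little. The SD of RPS28B mRNA over the 23 samples was 0.087 log2 units, and 0.941% of 5103 genes had a smaller one, with a median of 0.223 over all genes. Among the 200 genes of nearest mean level, 4% had a smaller SD, and among 56 RPS genes 2 did, several of which were themselves deleted in a strain. RPS28A mRNA had an SD of 0.113 (5.08% of all genes and 22.5% of genes of nearest level smaller) and EDC3 mRNA 0.134 (11.5% and 18%). Without 4662v and 4654v the SD of RPS28B mRNA was 0.075, with 0.392% of all genes and 1.5% of genes of nearest level smaller.

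The footprints varied more. Of the 200 genes of nearest footprint level, 39.5% had a smaller SD than RPS28A, 54.5% than RPS28B and 37% than EDC3, and without 4662v and 4654v these were 28.5%, 35.5% and 36.5%. Their coefficient of variation was 11.8% for RPS28B, 10.7% for RPS28A and 13.5% for EDC3, against 6.11%, 7.97% and 9.07% in mRNA. Counting error alone would give 4.85% in RPS28B mRNA, 4.11% in RPS28A mRNA and 6.90% in EDC3 mRNA, and 1.40%, 1.18% and 4.20% in footprints. The spread of RPS28B mRNA between strains was thus little above that of the counts. Without the pair of libraries that go against their labels, the coefficients for RPS28B were 5.23% in mRNA and 10.4% in footprints.

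**Figure D5:**
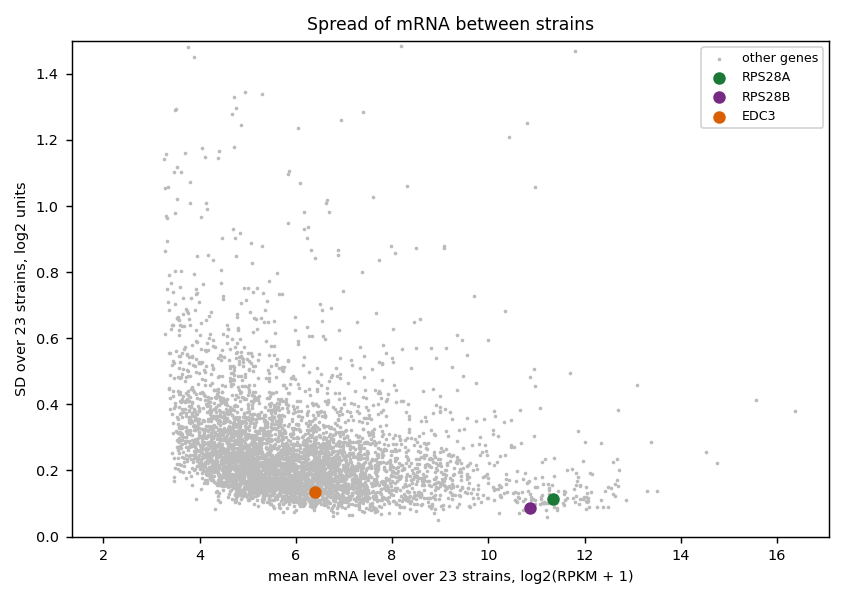
SD of log2(RPKM + 1) over the 23 samples with both RPS28 genes (vertical) against the mean level (horizontal, log2 scale) in mRNA, for all genes whose mean level was 10 RPKM or more; 38 genes lie above the top of the axis. RPS28B, at 0.087, is at the lower edge of the cloud, below RPS28A at 0.113 and EDC3 at 0.134.

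RPS28A was the more abundant copy in each of the 23 samples. Its level was 1.40 ± 0.138 times that of RPS28B in mRNA (SD, n = 23, range 1.17 to 1.74) and 1.40 ± 0.163 times in footprints (1.15 to 1.70). By mean level over all 25 samples, rps28a and rps28b included, the copies ranked 87th and 128th of 5103 genes in mRNA. In footprints they ranked 27th and 62nd of 4222, per length. EDC3 ranked 1777th and 1927th by the same mean.

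Ranked among genes of the same libraries, which share 1 scaling, both RPS28 genes had among the highest footprint-to-mRNA ratios. The median over the 23 samples was 3.32 for RPS28A and 3.49 for RPS28B, against 0.866 for the median gene, and 99.8% of 4199 genes were lower than either. Of 56 RPS genes, 1 was higher than RPS28A, namely RPS28B. For EDC3 the ratio was 0.769, and 42.8% of genes were lower. RPS28A and RPS28B have short coding sequences, and the part of length in these ratios was not tested.

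The strain classes overlapped in all 3 genes. RPS28A mRNA was 2650 ± 234 RPKM in RPL strains (SD, n = 14), 2509 ± 147 RPKM in the other RPS strains (n = 7) and 2673 and 2532 RPKM in the wild-type samples. RPS28B mRNA was 1867 ± 110, 1819 ± 115, and 2043 and 1874 RPKM in the same order, and EDC3 mRNA was 83.8 ± 6.99, 85.1 ± 8.94, and 72.5 and 80.5 RPKM. The order of the class means differed between the genes and all neighbouring classes overlapped.

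Footprints gave the same picture. RPS28A footprints were 8874 ± 1100 RPKM in RPL strains (SD, n = 14), 8333 ± 510 in the other RPS strains (n = 7) and 9383 and 8745 RPKM in the wild-type samples. For RPS28B the values were 6323 ± 718, 6010 ± 698, and 7633 and 6777 RPKM, and for EDC3 64.3 ± 9.29, 60.5 ± 7.70, and 56.5 and 64.4 RPKM. Wild-type RPS28B footprints were in the upper part of the range, 4484-1 holding its top, and RPL strains and other RPS strains spanned most of the rest.

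The other RPS strains were compared with the RPL strains with limma over all genes, on log2(RPKM + 1), so that a p-value measures the spread between strains of different genotypes. For mRNA the log2 difference was -0.08 ± 0.055 for RPS28A (SE, adjusted p = 0.416), -0.04 ± 0.046 for RPS28B (adjusted p = 0.658) and 0.02 ± 0.065 for EDC3 (adjusted p = 0.893). None of the 3 passed an adjusted p of 0.05, by limma with Benjamini-Hochberg adjustment, where 7.9% of 5103 genes did. The 95% intervals of the ratio of the classes were 0.877 to 1.03 for RPS28A, 0.912 to 1.04 for RPS28B and 0.922 to 1.11 for EDC3. Each interval includes 1, and the p-values do not show that the classes were equal.

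In footprints the limma differences were -0.08 ± 0.072 for RPS28A (SE, adjusted p = 0.556), -0.07 ± 0.078 for RPS28B (adjusted p = 0.655) and -0.08 ± 0.091 for EDC3 (adjusted p = 0.658), and again none of the 3 passed, where 0.782% of 4222 genes did. In translational efficiency (footprint less mRNA on the log2 scale) they were -0.01 for RPS28A (0.01 with the scaling by the median of gene ratios), -0.03 for RPS28B and -0.10 for EDC3, with adjusted p-values of 0.992, 0.933 and 0.782 by limma, where 0.0476% of 4199 genes passed. Against the wild type none of the members passed in either class, and 0% of genes did. Without 4662v and 4654v, the differences of other RPS from RPL strains were -0.06, -0.00467 and 0.01 in mRNA, -0.10, -0.12 and -0.05 in footprints, and -0.04, -0.11 and -0.06 in translational efficiency for RPS28A, RPS28B and EDC3, with a smallest limma adjusted p of 0.336. The RPS28B footprint difference of the other RPS strains from wild type, at -0.27 ± 0.136 (SE, limma adjusted p = 0.610), was the widest of these. At an unadjusted p under 0.05 limma had 137 genes for RPL strains and 505 for other RPS strains against wild type in mRNA, 106 and 337 in footprints, and 172 and 272 in translational efficiency.

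No difference between the classes was detected in the sum or in the division between the copies. The sum in mRNA was 4328 ± 228 RPKM in the other RPS strains (SD, n = 7) and 4518 ± 234 RPKM in RPL strains (n = 14), lower by 4.2% (p = 0.0936, adjusted p = 0.562 over 6 tests, exact two-sided permutation test). In footprints it was 14343 ± 958 and 15197 ± 1562 RPKM (exact permutation test, adjusted p = 0.613). RPS28B made up 42.0 ± 1.46% of the sum in the other RPS strains and 41.4 ± 2.79% in RPL strains in mRNA, and 41.8 ± 2.77% and 41.7 ± 3.02% in footprints, with an adjusted p of 0.901 for both by the exact permutation test. The ratio of the sums and the ratio of the shares also had an adjusted p of 0.901 by that test. With 116280 regroupings the smallest p this test can give is 8.6e-06.

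Across the 23 samples the mRNA levels of the 3 genes were related weakly or not at all. RPS28B mRNA did not follow RPS28A mRNA (Pearson r = 0.05, Spearman rho = 0.04) or EDC3 mRNA (r = -0.01, rho = -0.01), with permutation p-values adjusted over 7 relations of 0.998 for both by Pearson and 0.958 by Spearman. RPS28A mRNA on EDC3 mRNA gave r = -0.25 and rho = -0.21 (permutation, adjusted p = 0.599 and 0.774). Leaving out the 2 strains farthest from the median of the horizontal measure gave r = 0.18, -0.11 and -0.23 for these relations. Within RPL strains r was -0.24, 0.10 and -0.43 and within other RPS strains 0.52, 0.17 and 0.19, none with an adjusted permutation p under 0.05.

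Footprints followed mRNA for RPS28A only in part. RPS28A footprints on RPS28A mRNA gave r = 0.54 and rho = 0.57 (permutation p = 0.0072 and 0.0052, adjusted p = 0.0503 and 0.0365). Without rps22a (4662v) and rpl26a/+ rpl26b/+ (4654v), r and rho were both 0.51 (permutation, adjusted p = 0.129 and 0.137). Less class means they were 0.51 and 0.52 (permutation, adjusted p = 0.0904 and 0.0855). An adjusted p under 0.05 was thus reached only by Spearman over all 23 samples. The relation was r = 0.38 without the 2 strains farthest from the median, rpl24a and rpl7a, and r = 0.53 within RPL strains and 0.37 within other RPS strains, so it rests in part on those strains. RPS28B footprints on RPS28B mRNA gave r = 0.00 and rho = 0.16 (permutation, adjusted p = 0.998 and 0.816), and r = 0.37 (adjusted p = 0.342) without rps22a (4662v) and rpl26a/+ rpl26b/+ (4654v). EDC3 footprints on EDC3 mRNA gave r = 0.13 and rho = 0.09 (permutation, adjusted p = 0.969 and 0.937).

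The footprints of the copies had r = 0.49 and rho = 0.38 with each other (permutation p = 0.0172 and 0.0770, adjusted p = 0.0602 and 0.270). Without the 2 farthest strains, rpl24b and rpl26a/+ rpl26b/+ (4654v), r was 0.22, and without the pair of libraries that go against their labels it was 0.31. Within RPL strains r was 0.49 and within other RPS strains 0.29. EDC3 footprints had r = -0.44 with RPS28B footprints and 0.29 with RPS28A footprints over the 23 samples, and these relations were not tested. From the highest r down, EDC3 came 3264th of 4221 genes for RPS28B footprints and 1402nd for RPS28A footprints, so many genes had a more negative r with RPS28B. The narrow range of RPS28B mRNA, close to its counting error, limits what relations with that mRNA can show.

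YRA1, whose unspliced transcript is the other known Edc3 target, was counted over its coding sequence, which does not separate spliced from unspliced RNA. Its mRNA was at 432 RPKM in rps28a and 510 RPKM in rps28b, against 414, 509 and 602 RPKM as the lowest, median and highest of the 23. Its footprints were at 831 and 974 RPKM, against 775, 1005 and 1205 RPKM. Both strains were inside the range in both assays.

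Between the classes, YRA1 mRNA was 480 ± 42.6 RPKM in the other RPS strains (SD, n = 7) and 532 ± 55.6 RPKM in RPL strains (n = 14), a log2 difference of -0.15 (limma adjusted p = 0.194). Its footprints were 905 ± 68.9 and 1065 ± 109 RPKM, a log2 difference of -0.23 (limma adjusted p = 0.0777). Without rpl26a/+ rpl26b/+ (4654v) the footprint difference was -0.27 with a limma adjusted p of 0.0109, and over all settings this p ranged from 0.0109 to 0.182.

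Few genes of mRNA decay lay outside the levels of the other samples in the RPS28 deletions, and their counts were read against the share of all genes. Of 18 genes of decapping and 5′-to-3′ decay, EDC3 included, none was 1.5-fold away from the median of the 23 in mRNA or footprints in either strain, where 5.76% of genes were in rps28a mRNA, 6.09% in rps28b mRNA and 3.74% in the footprints of each. With 18 genes, a count of 0 is near that share. In rps28b footprints 3 of the 18 lay above the range of the 23, where 3.62% of genes lay above it and 5.4% outside it on either side. These were the Lsm ring genes LSM2 at 195 RPKM (highest of the 23, 189), LSM4 at 181 RPKM (172) and LSM7 at 306 RPKM (288). The other Lsm genes of the list lay within their ranges in these footprints. LSM1, LSM3, LSM5 and LSM6 were at 0.08, 0.06, -0.26 and 0.05 on the log2 scale against the median. In rps28a mRNA 1 of 18 lay outside the range, where 7.05% of genes did. This was DHH1, a helicase that activates decapping, below it at 157 RPKM (lowest of the 23, 164). In rps28a footprints 1 of 18, LSM6, lay below the range, where 5.68% of genes lay outside it. A count of 1 of 18 is near these shares. In rps28b mRNA 0 of 18 lay outside, where 10.9% of genes did. The extremes in rps28a mRNA were DCP1, a subunit of the decapping enzyme, at -0.42, and DCS1, a scavenger decapping protein, at 0.43 on the log2 scale. The list's median was -0.03 in rps28a mRNA and 0.08 in rps28b mRNA, beside -0.06 and 0.08 for all genes.

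In the footprint-to-mRNA ratio, 1 of the 18 genes was past 1.5-fold, where 4.33% of genes were in rps28a and 4.14% in rps28b. This was LSM6, a subunit of the Lsm ring that binds deadenylated mRNA, at -0.85 in rps28a, on 35 mRNA and 183 footprint reads. Its footprints, at 194 RPKM, lay below a range of 204 to 297 RPKM. None of 11 genes of deadenylation was past 1.5-fold in mRNA, nor any of the 9 above the minimum level in footprints and ratio. Of all genes, 5.76% were past it in rps28a mRNA, 6.09% in rps28b mRNA and 3.74% in the footprints of each. With lists of this size, a count of 0 is near those shares.

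Between the classes, EDC1, a further decapping enhancer, was the 1 of 18 decapping genes that passed the test in mRNA, a share near the 7.9% of all genes that did. Its mRNA was 65.3 ± 9.15 RPKM in the other RPS strains (SD, n = 7) and 99.8 ± 26.3 RPKM in RPL strains (n = 14), and fell by 0.57 on the log2 scale (limma adjusted p = 0.0151, range over all settings 0.00698 to 0.0424). The strains overlapped, with the highest other RPS strain at 76.0 RPKM and the lowest RPL strain at 66.4 RPKM. EDC1 mRNA was 63.8 RPKM in rps28a and 79.2 RPKM in rps28b, and its footprint difference between the classes was -0.65 (limma adjusted p = 0.101, range over all settings 0.0212 to 0.200). The list's median was -0.12 in mRNA, beside -0.03 for all genes. No gene of deadenylation passed in mRNA or footprints, where 7.9% and 0.782% of all genes did, and a count of 0 is near those shares.

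The genes most like each of the 3 were found by Pearson r of log2(RPKM + 1) over the 23 samples, as a description, since all genes of a library share its depth and scaling. For RPS28B mRNA the highest were EEB1 and YLR162W (0.55 each), TRX1 (0.53), RPS22B and THO1 (0.52 each), and RPS28A mRNA came 1450th. For RPS28A mRNA they were RPL36A (0.75), ADH6 (0.73), PRE9 (0.72), CDC48 and RPL37B (0.71 each), with RPS28B 2227th. For EDC3 mRNA they were PUF4 (0.75), SAC3 and BPL1 (0.67 each), YJR098C (0.66) and RPC31 (0.64). The highest values for RPS28B mRNA were lower than those for the other genes. They were 0.45, 0.50, 0.27, 0.43 and 0.37 in the order named without 4662v and 4654v.

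In footprints, RPS28B was most like RPS13 (0.80) and RPS12 (0.76), which encode other 40S proteins, then RSM27 (0.72), YDR524C-B (0.71) and ASC1 (0.70), whose product binds the 40S subunit. RPS28A footprints were most like YIP4 (0.83), SPT4 (0.81), SPC1 and VMA9 (0.80 each). EDC3 footprints were most like GSF2 and TRS20 (0.92 each), PDS5 and CDC40 (0.91 each) and NUP188 (0.90). Without 4662v and 4654v the values for RPS28B footprints were 0.75 for RPS13, 0.84 for RPS12, 0.60 for RSM27, 0.63 for YDR524C-B and 0.78 for ASC1, and those for SPT4, SPC1 and VMA9 with RPS28A were 0.76, 0.74 and 0.76.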

How the data were processed

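Each of the 25 samples gave a library of ribosome footprints and one of total mRNA. The submitters' processing notes list Bowtie2, CASAVA and bcl2fastq 2.17. The sources used here do not give the genome build, the annotation, the use of strand or the treatment of reads matching several places. The deposited columns, headed RPKM per the file headers, hold a signal that the authors computed per gene, which was found from the values to be reads multiplied by a library constant and by the coding length less 60 nt. Whole reads were recovered with a tolerance of 0.03 reads, from annotated lengths for 5090 of 5812 genes (87.6%) and from the values for 1085 more, and 153 open reading frames without a length (9.33e-05% of the mRNA signal) and 1 unnamed line per table were left out. RPKM was then recomputed, which departs from the planned use of the columns as deposited.

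Genes averaging 10 RPKM or more were tested on log2(RPKM + 1) with limma 3.58.1 in R 4.3.3, with an intensity trend and Benjamini-Hochberg adjustment, in 1 fit of RPL, other RPS and wild-type samples that left out rps28a and rps28b. Footprint and mRNA libraries were paired by strain label for translational efficiency. The wild-type libraries share a strain number and differed by more than counting allows (chi-square over degrees of freedom, 3.30 in mRNA and 10.6 in footprints). The strains rps28a and rps28b were set against the median of the 23 others, with 95% exact counting intervals. Sums and shares were compared by exact permutation tests with numpy 2.4.6 and scipy 1.17.1 in Python 3.11.15, and relations between levels with 100000 permutations. The fit of other RPS against RPL strains was also run on simulated counts with the same dispersion for all genes, drawn independently between genes. In these data the spread between strains differs between genes, so that run does not show how the fit performs on them.

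The genes, lists and tests were chosen with earlier results of these data known. Besides the 3 genes, the text names YRA1, up to 4 genes of each decay list past the test or 1.5-fold, and the 5 genes most alike by Pearson r, of which 1 is not reported here. DCP1, DCS1, DHH1, the LSM genes other than LSM6 and the neighbours were chosen after their values were seen. Alternatives covered scaling, filter, pseudocount, tool, strains and pairing.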

Additional observations from a re-analysis of the deposited data

How the results depend on the processing

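The strains rps28a and rps28b had 1 culture each, and RPS28 levels rest on 144 nt of coding sequence. Counting error (CV 4.85%) was most of the spread of RPS28B mRNA (6.11%) but less of that of RPS28A mRNA (4.11% of 7.97%). Of 1185 values under alternatives, for 69 results, 1082 kept their direction and their side of the threshold. None of RPS28A, RPS28B and EDC3 passed the class tests under any alternative run. A voom fit of translational efficiency, and the class with all 9 RPS strains for the RPS28 genes, were not run. Where a value below changed sign or moved, the cause was not tested.

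In percent of the median, RPS28A mRNA in rps28b was 99.0 and RPS28B mRNA in rps28a 191 with the scaling by the median of gene ratios. Against the wild type, RPS28B in rps28a was 171 in mRNA and 126 in footprints, and EDC3 mRNA was 97.8 in rps28a and 119 in rps28b.

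Values that changed sign between other RPS and RPL strains (log2) were RPS28B mRNA with quantile normalization (0.0178) and RPS28A translational efficiency with the median-of-ratios scaling (0.00685) and the scaling without ribosomal protein genes (0.0174). With the last, the ratio of the sums differed by 0.00131. Without rps22a (4662v) and rpl26a/+ rpl26b/+ (4654v), the footprint share of RPS28B differed by -0.322 percentage points. Against wild type, RPS28A footprints in RPL strains were 0.0322 with quantile normalization and 0.0126 in homozygous single deletions. EDC3 footprints in other RPS strains were 0.00495 with the scaling without ribosomal protein genes, 0.0118 with all 9 RPS strains, 0.0259 without the 2 doubted strains and 0.00542 in homozygous single deletions. Among relations, r changed sign for RPS28B on RPS28A mRNA (-0.0141 less class means, -0.0504 without the doubted strains), RPS28B on EDC3 mRNA (0.0848 less class means) and RPS28B footprints on mRNA (-0.155 less class means).

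Counts of all genes past the limma test were less stable. In footprints 33 genes passed, against 78 with quantile normalization, 237 with all 9 RPS strains, 208 without the doubted strains and 477 in homozygous single deletions. In translational efficiency 2 passed, against 4, 24, 1 and 0 in the same order. In the fit that keeps no replicate block, which ignores the pairing of assays by strain, 0 genes passed. Its log2 differences (-0.00631 for RPS28A, -0.0341 for RPS28B and -0.102 for EDC3) equal those of the paired fit by construction. They are therefore no check of direction.

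Leaving out 1 sample at a time moved the count between 204 (without rps0b) and 824 (without rps25a rps25b) genes in mRNA, 1 (without rps22a/+ rps22b/+) and 416 (without rps25a rps25b) in footprints, and 0 and 10 in translational efficiency. Between other RPS and RPL strains, the log2 difference ranged from -0.0038 to 0.0742 for EDC3 mRNA, from -0.0245 to 0.0248 for RPS28A translational efficiency and from -0.0845 to 0.0110 for that of RPS28B. The ratio of the sums ranged from -0.118 to 0.0281 and the footprint share of RPS28B from -0.624 to 0.751. Against wild type, RPL strains ranged from -0.0175 to 0.0609 for RPS28A mRNA, from -0.0911 to 0.0105 for RPS28A footprints and from -0.0164 to 0.169 for EDC3 footprints, and other RPS strains from -0.0997 to 0.0856 for EDC3 footprints.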

Other observations

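The genes beside the deleted copies were read in the same strains. Next to RPS28A, SWT1, which encodes an RNA endonuclease, was at 12.8 RPKM in rps28a mRNA (22 reads), against 18.2, 26.6 and 36.9 RPKM as the lowest, median and highest of the 23 samples with both RPS28 genes, and at 4.84 RPKM in footprints (30 reads), against 8.85, 11.4 and 17.8 RPKM. On the other side GLN4, the glutamine tRNA synthetase gene, was at 259 RPKM in mRNA, above a range of 167 to 247 RPKM, and at 296 RPKM in footprints, within 199 to 318 RPKM. Thus SWT1 was below its range in both assays and GLN4 above it in mRNA.

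Next to RPS28B, RED1, a meiotic chromosome gene, was at 10.3 RPKM in rps28b mRNA, within 7.10 to 14.04 RPKM, and had 5 footprint reads. YLR264C-A had 1 mRNA read and 2 footprint reads in rps28b and 0 in all 23 samples. None of these neighbours overlaps the deleted gene in the reference gene table, which was used for gene order only.

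Of 7 mating genes that haploid cells express and diploid cells repress, none reached a mean of 10 RPKM. STE2 and STE6 had median mRNA levels of 5.86 and 5.81 RPKM, and STE3, MFA1, MFA2 and MF(ALPHA)1 were at a median of 0.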
